A study of Mus musculus with 4 samples.

Results

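In the islets of pre-diabetic mice, Cd4 T cells whose receptor was found in 2 or more cells of the same library were set against Cd4 T cells whose receptor was found once. Live TCR beta-stained cells came by sorting from pancreatic islets of female NOD mice, an inbred strain that develops autoimmune diabetes, at 8 and 16 weeks of age. All groups share strain, sex, tissue, sort and pre-diabetic state, and differ in age. Each age has 1 RNA library and 1 receptor library made with a droplet 5′ kit, and the labels do not say how many mice were pooled. With 1 library per age no difference was tested: a gene is described by its ratio in each library, and every interval is a 95% interval that covers counting error only.

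Cells were chosen by their own reads. A cell needed 500 or more detected genes, at most 10% mitochondrial UMIs (unique molecular identifiers, each standing for 1 captured RNA molecule), 1 or more Cd4 UMIs and no UMI of Cd8a, Cd8b1 or Foxp3. A clonotype was the V segment and CDR3 nucleotides of the productive alpha and beta chains with the most UMIs, and clone size was counted over every barcode of the library. Of 3809 cells past the filter, 1009 met the gate and had a paired clonotype, 507 at 8 weeks and 502 at 16 weeks. At 8 weeks 114 cells from 52 clones were expanded, or 22.5% (18.9 to 26.4%, exact Clopper-Pearson interval), and 393 were single. At 16 weeks 54 cells from 27 clones were expanded, or 10.8% (8.18 to 13.8%), and 448 were single. Most expanded clones were small: 28 of 52 and 16 of 27 had exactly 2 cells, while 9 and 3 had 5 or more, and the largest held 14 and 7 cells. A cell called single may belong to a larger clone in the animal that was sampled once.

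A T cell receptor is assembled by random joining of gene segments, so that cells of 1 animal with the same alpha and beta nucleotide sequences usually descend from 1 ancestor. The same sequences can also arise separately in different animals. If mice were pooled, an expanded clone may therefore join cells without a common ancestor. The CDR3 loop at each joint makes most of the contact with the peptide held by an MHC molecule. A naive Cd4 cell recirculates through lymph nodes under factors such as Klf2 and Lef1, and after antigen recognition it divides, loses the lymph node homing genes and takes on effector, follicular helper, regulatory or chronically stimulated states, the last with inhibitory receptors such as PD-1 (Pdcd1) and Lag3.

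The CDR3 sequences of the clone with the most gated cells at each age are printed first, because these clones weigh most in the sums. Sequences run 5′ to 3′ as the deposited receptor tables give them, and capitals mark bases beyond the stretch shared with at least 50% of the other CDR3s of the same V or J segment. The 8-week clone had 14 cells, 12 of them in the Cd4 gate. The 16-week clone had 6 cells, all 6 in the gate.
8-week leading clone, alpha, TRAV21-DV12 and TRAJ57: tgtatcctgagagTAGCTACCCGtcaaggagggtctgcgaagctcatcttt
8-week leading clone, beta, TRBV13-2 and TRBJ2-7: tgtgccagcggGGGAtatgaacagtacttc
16-week leading clone, alpha, TRAV5-4 and TRAJ53: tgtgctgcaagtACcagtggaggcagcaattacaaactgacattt
16-week leading clone, beta, TRBV19 and TRBJ2-7: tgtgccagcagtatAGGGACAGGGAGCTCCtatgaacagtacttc

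Across the ages 5 pairs of expanded clones, 1 clone from each age, had near-identical beta chains, and 4 of these pairs are shown because they link the separately sequenced libraries. A pair had the same TRBV and TRBJ segments, the same CDR3 length and at most 3 beta mismatches. Capitals now mark the bases at which the 8-week and 16-week sequences differ, and positions count from 1 at the 5′ end of the CDR3 with the 8-week base first. The TRBV1 and TRBJ2-7 clonotype was identical in both chains at both ages, with 2 cells in each library and no shared cell barcode. A common origin of its cells at the 2 ages was not tested.
Both ages, beta, TRBV1 and TRBJ2-7: tgcagtgggacatatgaacagtacttc
Both ages, alpha, TRAV5-4 and TRAJ56: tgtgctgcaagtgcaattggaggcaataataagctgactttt
Both ages, beta, TRBV19 and TRBJ2-7: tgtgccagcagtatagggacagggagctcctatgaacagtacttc
8 weeks, its alpha, TRAV5-4 and TRAJ53: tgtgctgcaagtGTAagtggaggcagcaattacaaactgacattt
16 weeks, its alpha, TRAV5-4 and TRAJ53: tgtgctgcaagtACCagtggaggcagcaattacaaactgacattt
8 weeks, beta, TRBV1 and TRBJ2-1: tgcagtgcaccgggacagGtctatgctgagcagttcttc
16 weeks, beta, TRBV1 and TRBJ2-1: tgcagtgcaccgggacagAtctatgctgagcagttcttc
8 weeks, beta, TRBV15 and TRBJ2-7: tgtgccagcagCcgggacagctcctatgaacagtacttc
16 weeks, beta, TRBV15 and TRBJ2-7: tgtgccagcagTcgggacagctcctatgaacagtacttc
The TRBV19 beta chain was the same in a clone of 2 cells at 8 weeks and in the 6-cell clone at 16 weeks, whose alpha chains differed at 3 bases. The TRBV1 and TRBJ2-1 pair, of 4 and 3 cells, differed by G19A in beta, and its alpha chains used different V segments, TRAV10D at 8 weeks and TRAV5-4 at 16 weeks, with TRAJ15 and 3 mismatches. The TRBV15 pair, of 2 and 3 cells with only 1 in the Cd4 gate at each age, differed by C12T. Both its alpha chains used TRAV16N and TRAJ23. A second 8-week TRBV15 clone, of 5 cells with 1 in the gate, differed from the same 16-week clone by T18C.

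The gate was checked against marker genes. The 5 T cell genes found in the gene table summed to 6660 CPM (UMIs per 1000000 UMIs of the arm) in expanded and 5672 CPM in single cells at 8 weeks, and to 6518 and 5601 CPM at 16 weeks, so both arms held T cell RNA, and of these genes Cd4 was used by the gate. Expanded cells were deeper: their median was 4925 UMIs against 3325 at 8 weeks and 4760 against 3238 at 16 weeks. Acinar enzyme genes of the exocrine pancreas summed to 22.0 CPM in expanded and 201 in single cells at 8 weeks, and to 83.9 and 110 CPM at 16 weeks. B cell genes summed to 25.9 and 174 CPM, then 12.4 and 22.9 CPM. In single cells at 8 weeks 1 cell gave 86.8% of the B cell UMIs and 1 cell gave 61.2% of the acinar UMIs. Myeloid genes summed to 277 and 224 CPM, then 283 and 218 CPM. At 8 weeks the gene Cst3 alone gave 200 of the 224 CPM in single cells, where Lyz2, C1qa and C1qb had 0. The part of other cells' RNA in the results was not tested. Leaving out cells with 2 or more UMIs of an acinar, islet endocrine, B or myeloid list gave 83 higher and 138 lower genes among 3338, by the rule given below. A total of 5 cell barcodes occurred in both RNA libraries, 2 of them in the compared cells at 16 weeks and none at 8 weeks, and no shared barcode carried the same clonotype in both.

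Expanded cells of both ages had more RNA of most measured inhibitory receptor and follicular helper genes, and less of most naive and stem-like genes, than single cells. Of 27998 genes, 5237 had at least 40 UMIs over both arms in each library. A gene counted as higher or lower when its ratio was at least 1.5-fold the same way in both libraries and no cell gave over 20% of the UMIs of the arm where it was higher. By that rule 139 genes (2.65%) were higher and 142 (2.71%) were lower in expanded cells. Since the ratios chose these genes, their counts and values are a description and support nothing. The 2.65% and 2.71% are the background for the counts of list members below. For ratios merely above or below 0 in both libraries the share of all genes is not given, so such list counts have no background. Summed values cannot tell fewer expressing cells apart from less RNA per cell. Across the 5237 genes the median log2 ratio was 0.04 at 8 weeks and 0.10 at 16 weeks, and 38 genes passed 1.5-fold in opposite directions. The 2 libraries' ratios had a Pearson r of 0.46 across genes, and 0.74 over the 1348 genes with 200 or more UMIs in each library. That is a description, because genes share cells and depth and are not replicates. Just inside the threshold lay Elk3 at 1.05 and 0.59 (log2, 8 then 16 weeks) and Oxr1 at -0.59 and -0.65, and just outside lay Naa38 at 0.58 and 0.62 and Sh3gl1 at -0.80 and -0.58.

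**Figure D1:**
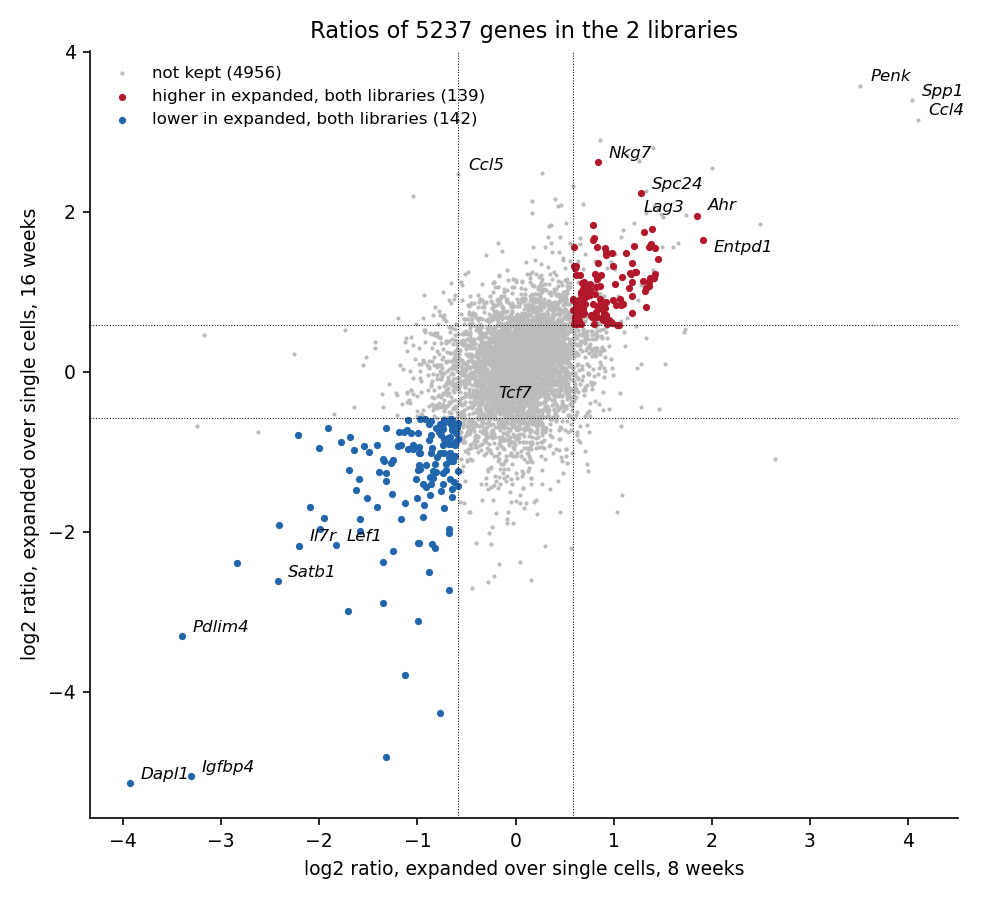
Log2 ratio of expanded over single Cd4-gated cells at 8 weeks (x axis) and at 16 weeks (y axis), 1 point per gene with 40 or more UMIs in each library. Coloured points are the 139 higher and 142 lower genes, which fill the upper right and lower left corners by construction.

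Among the higher genes, Ahr had the largest ratio in the library where its ratio was smaller. Ahr encodes the aryl hydrocarbon receptor, a ligand-activated transcription factor, and lies on chromosome 12 at 35497974 to 35535038 (GENCODE M21, GRCm38). At 8 weeks it had 110 CPM in expanded and 30.4 CPM in single cells (85 and 57 UMIs). At 16 weeks the levels were 162 and 42.1 CPM (52 and 81 UMIs). The log2 ratios were 1.85 (1.36 to 2.37) and 1.94 (1.41 to 2.46). These ratios chose the gene, so the intervals describe counting error and are no support for it. Entpd1 (chromosome 19, 40612366 to 40741602), which encodes the ectoenzyme CD39 that degrades extracellular ATP, had 32.4 against 8.54 CPM and 49.7 against 16.1 CPM. It rested on 25 and 16 UMIs in expanded cells, with log2 ratios of 1.91 (0.96 to 2.93) and 1.65 (0.66 to 2.54).

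Lag3 (chromosome 6, 124904361 to 124911705), an inhibitory receptor that binds MHC class II, had the most UMIs of the 12 leading higher genes. Expanded cells held 366 and single cells 339 Lag3 UMIs at 8 weeks, or 474 against 181 CPM, and 226 and 393 UMIs at 16 weeks, or 702 against 204 CPM. The Lag3 log2 ratios were 1.39 (1.17 to 1.61) and 1.78 (1.54 to 2.02). Pdcd1, the inhibitory receptor PD-1, was 354 against 155 CPM at 8 weeks and 320 against 125 CPM at 16 weeks. Tigit, an inhibitory receptor for nectin-family ligands, was 336 against 177 CPM and 426 against 151 CPM. Cd200, a membrane glycoprotein that signals to CD200R on myeloid cells, was 483 against 196 CPM and 382 against 175 CPM. In each of these genes the expanded arm was higher at both ages.

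Of the 15 genes listed as inhibitory receptors and exhaustion factors, 12 had enough UMIs. Of these, 8 were counted as higher, against 2.65% of all measured genes, none lower, and 11 had a ratio above 0 in both libraries. The list's median log2 ratio was 0.90 at 8 weeks and 1.05 at 16 weeks, against 0.04 and 0.10 over all genes. Beside Pdcd1 (1.19 and 1.36), Lag3, Tigit (0.92 and 1.5), Cd200 (1.30 and 1.13) and Entpd1, the higher genes were Ctla4 (0.87 and 0.88), an inhibitory receptor that competes for CD80 and CD86, and the DNA-binding factors Tox (0.67 and 0.98) and Tox2 (0.70 and 0.94), known from chronically stimulated T cells. Btla, an inhibitory receptor of the same group, had ratios of 0.29 and -0.02 and was not among them.

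Of 14 follicular helper genes, 9 had enough UMIs and 4 were counted as higher, against 2.65% of all measured genes. All 9 had ratios above 0 in both libraries, with medians of 0.79 and 0.84. Il21, the cytokine of follicular helper and some islet-infiltrating Cd4 cells, was 88.1 against 35.2 CPM at 8 weeks and 112 against 56.2 CPM at 16 weeks, with log2 ratios of 1.32 and 1.01. Maf, a transcription factor of Il21 expression, had 0.86 and 0.79. Cxcr5, the receptor for entry into B cell follicles, had 0.79 and 1.83, and Tnfsf8, the ligand of CD30, had 1.09 and 0.84. Below the threshold in at least 1 library were Sh2d1a, the adaptor of SLAM receptors (0.53 and 0.98), and Icos, a costimulatory receptor (0.52 and 0.46). Angptl2, a secreted protein, had 1.28 and 1.09, but 1 cell gave 23.1% of its expanded UMIs at 16 weeks.

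Genes of other effector programs were mixed. Of 18 measured S100, annexin and galectin genes 5 were higher, among them Lgals1, a galectin (2166 against 967 CPM and 1417 against 605 CPM), S100a6, a calcium-binding protein (0.99 and 1.48), and Anxa2, an annexin (0.99 and 0.90). That list's medians were 0.20 and 0.60. Of 10 Th1 genes only Ifng, the Th1 cytokine, was counted (0.79 and 1.64), and the medians were 0.32 and 1.15. Tbx21, the Th1 master regulator, had 0.33 and 1.69, and the chemokine receptor Cxcr3 had 0.16 and 1.25, so the 2 libraries differed in size for these genes, a difference that was not tested. Of 5 measured regulatory T cell genes 3 were higher, namely Tnfrsf4, encoding OX40 (0.68 and 1.03), Tnfrsf1b, encoding TNF receptor 2 (0.93 and 0.59), and Capg, an actin-capping protein (0.94 and 0.63). The gate admitted no Foxp3, Cd8a or Cd8b1 UMI, but clones could also hold cells outside it. Cells with a Foxp3 UMI were in 11 of the 52 expanded clones at 8 weeks and 6 of the 27 at 16 weeks. Cells with a Cd8a or Cd8b1 UMI were in 11 of these clones at 8 weeks and 4 at 16 weeks. The part of either kind of clone in the result was not tested. Of the 9 measured anergy genes, Nt5e, encoding CD73, was higher (0.81 and 0.97) and Dgka, a kinase that limits diacylglycerol signals, was lower (-0.68 and -1.08). Izumo1r, the folate receptor 4 gene, had 0.48 and 0.45.

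**Figure D2:**
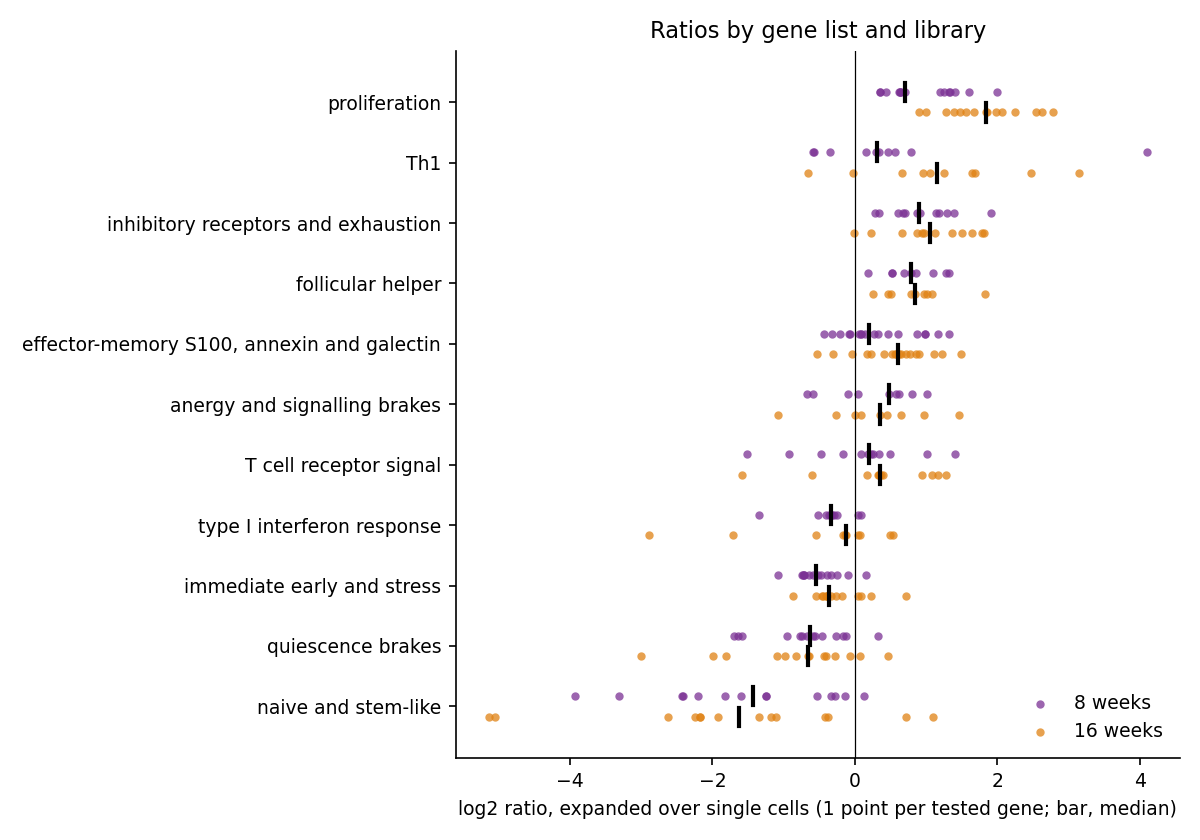
Log2 ratio of expanded over single cells for the members of the gene lists, at 8 and at 16 weeks, 1 point per gene with enough UMIs and a bar at each list's median. The medians of the inhibitory receptor and follicular helper lists lie above 0 and those of the naive and quiescence lists below 0 at both ages.

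The other leading genes, which belong to no list, covered many functions. Timp2, an inhibitor of matrix metalloproteinases, was 110 against 41.1 CPM at 8 weeks and 134 against 46.3 CPM at 16 weeks. Gpm6b, a proteolipid-family membrane protein, was 162 against 59.2 CPM and 137 against 52.0 CPM. Serpinb6a, an intracellular serine protease inhibitor, was 114 against 44.3 CPM and 143 against 48.9 CPM. Ms4a6c, a membrane protein of the MS4A family, was 124 against 50.2 CPM and 131 against 39.0 CPM. AU020206, a gene without an assigned function, was 149 against 57.1 CPM and 177 against 58.8 CPM. Spc24, a kinetochore subunit of dividing cells, was 80.4 against 33.1 CPM and 77.7 against 16.6 CPM, with 1 cell giving 20% of its expanded UMIs at 16 weeks. Without dividing cells, as defined below, Spc24 had 2 UMIs in expanded and 3 in single cells at 8 weeks, and 0 in both at 16 weeks. Trps1, a GATA-type repressor (1.23 and 1.25), Phactr2, an actin and phosphatase regulator (1.22 and 1.24), and 1700019D03Rik (1.42 and 1.22) completed the 12.

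Many strong ratios came from few cells and were not counted. Without the limit on 1 cell's share, 209 genes would be higher and 144 lower. Penk, the proenkephalin gene, was 263 against 22.9 CPM at 8 weeks and 435 against 36.4 CPM at 16 weeks, or 3.51 and 3.57 on the log2 scale. A single cell gave 24.1% and 41.4% of its expanded UMIs, although 18 and 5 expanded clones held a Penk UMI. Spp1, encoding osteopontin, had 4.04 and 3.39, with 82.4% and 52.2% from 1 cell. Ccl4, a chemokine of activated T cells, had 4.10 and 3.15, with 45.0% and 58.0% from 1 cell. Ccl5, another chemokine, had -0.59 and 2.47 and so lay in opposite directions at the 2 ages.

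Of the lower genes, the 12 leading ones included Igfbp4 (chromosome 11, 99041244 to 99054392), an IGF-binding protein gene known from naive Cd4 cells. Expanded cells held 29 and single cells 708 Igfbp4 UMIs at 8 weeks, or 37.6 against 378 CPM, and 4 and 891 UMIs at 16 weeks, or 12.4 against 463 CPM. The log2 ratios were -3.31 (-3.92 to -2.79) and -5.05 (-7.10 to -3.86). Dapl1 (chromosome 2, 59484653 to 59505020), another gene of naive T cells, had 1 UMI in expanded and 55 in single cells at 8 weeks, a log2 ratio of -3.93 (-9.83 to -1.96). At 16 weeks Dapl1 had 0 and 105 UMIs. Against the limit that 0 UMIs allow, 3 UMIs over the arm, it was at least 5.86-fold lower. Dapl1 was thus at or near 0 UMIs in expanded cells at both ages. Igfbp4 had many more UMIs in single cells, and without dividing cells it had 17 and 0 UMIs in expanded cells. The counts therefore show no difference in how far the 2 genes fell.

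Other naive and stem-like genes were lower at both ages. Klf2, the transcription factor that drives S1pr1, was 161 against 488 CPM at 8 weeks and 295 against 752 CPM at 16 weeks. S1pr1, the receptor for exit into lymph and blood, had log2 ratios of -1.25 and -1.11, and the homing receptor gene Ccr7 had -1.25 and -2.25. Il7r, the receptor for the survival cytokine IL-7, was 37.6 against 176 CPM and 49.7 against 231 CPM. Lef1, a transcription factor of naive cells, was 62.2 against 223 CPM and 96.4 against 441 CPM. Satb1, a chromatin organiser, was 9.07 against 51.8 CPM and 15.5 against 105 CPM.

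Of the 14 measured naive and stem-like genes 9 were lower, against 2.71% of all measured genes, and none was higher. In both libraries 12 had ratios below 0, with medians of -1.42 and -1.63, also with Dapl1 at its bound of -2.55 at 16 weeks. Tcf7, the TCF1 gene that marks naive and stem-like cells, stood apart from this group. It had 179 against 218 CPM at 8 weeks and 177 against 232 CPM at 16 weeks, log2 ratios of -0.28 and -0.38, and was not counted. Slamf6, a surface receptor used with Tcf7 to mark stem-like cells, had 183 against 168 CPM and 242 against 148 CPM, or 0.13 and 0.72. Bcl2, a survival gene, had -0.14 and -0.42, and Id3, a repressor of E proteins, had -0.34 and 1.09, with 45.0% of its expanded UMIs at 16 weeks from 1 cell.

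Of 14 quiescence genes 11 had ratios below 0 in both libraries (medians -0.63 and -0.65), and 6 were lower and none higher, against 2.71% of all measured genes lower. They were Pik3ip1, an inhibitor of PI3 kinase (-1.70 and -3.00), Klf3, a repressor of the Klf family (-1.64 and -0.98), Tsc22d3, the glucocorticoid-induced GILZ gene (-1.59 and -2.00), Txnip, an inhibitor of thioredoxin and glucose uptake (-0.95 and -1.81), Zfp36l2, an RNA decay factor (-0.77 and -0.65), and Foxo1, a transcription factor that maintains quiescence (-0.67 and -0.65). The remaining leading genes were Pdlim4 (-3.40 and -3.30), a LIM-domain protein, St8sia6 (-2.84 and -2.39), a sialyltransferase, Scml4 (-1.99 and -1.96), a Polycomb-related gene, Il4ra (-1.95 and -1.83), the IL-4 receptor alpha chain, and Pydc3 (-2.10 and -1.70), of the interferon-inducible PYHIN family. Pydc3 has near-identical neighbours between which reads can be split. None of the immediate early genes was counted as lower, against 2.71% of all measured genes, but 10 of 14 lay below 0 in both libraries. Examples were Fos (-1.07 and -0.39) and Jun (-0.74 and -0.40). Of 10 type I interferon response genes 1 was lower, also against 2.71%.

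Of 16 proliferation genes, all 15 measured had ratios above 0 in both libraries, with medians of 0.71 and 1.84. None was counted as higher, against 2.65% of all measured genes, and 12 of them exceeded the limit on 1 cell. Mki67, the proliferation antigen Ki-67, had 1.61 and 1.56, with 20.5% and 31.6% of its expanded UMIs from 1 cell. Cells with 2 or more UMIs of the proliferation markers were called dividing. They made up 24 of 114 expanded cells, or 21.1% (14.0 to 29.7%), against 42 of 393 single cells, or 10.7% (7.81 to 14.2%), at 8 weeks. At 16 weeks the shares were 14 of 54, or 25.9%, and 34 of 448, or 7.59%. The differences were 10.4 percentage points (3.03 to 19.1, Newcombe interval) and 18.3 points (8.13 to 31.5). After thinning each cell to 1500 UMIs, which left out 1 expanded cell at each age and 8 and 3 single cells, the shares were 15.9% against 6.23% and 18.9% against 2.70%. Dividing cells came from 19 and 11 expanded clones.

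Depth and division were then taken out. In cells thinned to 1500 UMIs, 113 genes were higher and 76 lower among 2130 genes with enough UMIs, and these included 46 of the 139 and 33 of the 142 genes. Of the 98 higher and 101 lower genes with 20 or more thinned UMIs in each library, 97 and 95 had the same direction in both. The inhibitory list had medians of 1.42 and 1.78 there over 10 members, and the naive list -1.94 and -1.90. Without dividing cells 164 genes were higher and 137 lower, including 72 of the 139 and 83 of the 142. Of the 137 and 141 genes with 20 or more UMIs left, 134 and 139 had the same direction in both libraries. The inhibitory list then had medians of 1.20 and 1.70 and the follicular helper list 1.30 and 1.23. The proliferation list had 0.03 and 0.19 over 5 members, but proliferation markers chose the removed cells, so smaller ratios there were partly fixed in advance. None of the genes was counted in the opposite direction in either setting. Because these genes were chosen by their ratios in the same cells, the kept directions were largely fixed in advance and support nothing.

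The single arm had more naive-gene RNA. Cells with no UMI of 5 naive-cell genes, Lef1 and Ccr7 among them, were compared after thinning, a setting added after the data were seen. That left 87 and 41 expanded and 193 and 146 single cells, and the counts were 19 higher and 14 lower among 911 genes. The inhibitory list had medians of 0.78 and 0.69 over 7 members, against 1.42 and 1.78 over more members in all thinned cells. The follicular helper list had 0.66 and 0.46 over 6. The S100 list had -0.05 and -0.02 over 17 members and the regulatory list -0.19 and -0.91 over 4, so both lay below 0 here and above 0 among all gated cells. Ahr had 1.89 and 1.38, Lag3 1.23 and 0.99, Cd200 1.46 and 1.59, and Tigit 0.78 and 1.21. Pdcd1 had 1.07 and 0.69, and its interval at 16 weeks included 0 (-0.15 to 1.44). Tox had 0.17 and 0.32 and Tox2 0.60 and 0.64, with intervals that included 0 at both ages. For Lag3 at 16 weeks a single expanded cell gave 36.8% of the UMIs, which is over the limit used for counting genes. Ctla4 had 0.04 and 0.20, Lgals1 0.67 and 0.30, and Tcf7 0.14 and -0.06. Klf2 had -2.25 and -1.69 and Il7r -2.24 and -1.37. Neither gene was used to select these cells, but both belong to the naive list. A naive cell can have no UMI of the 5 genes after thinning, so the single cells kept here may still include naive cells. The part of such cells in these ratios was not tested.

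**Figure D3:**
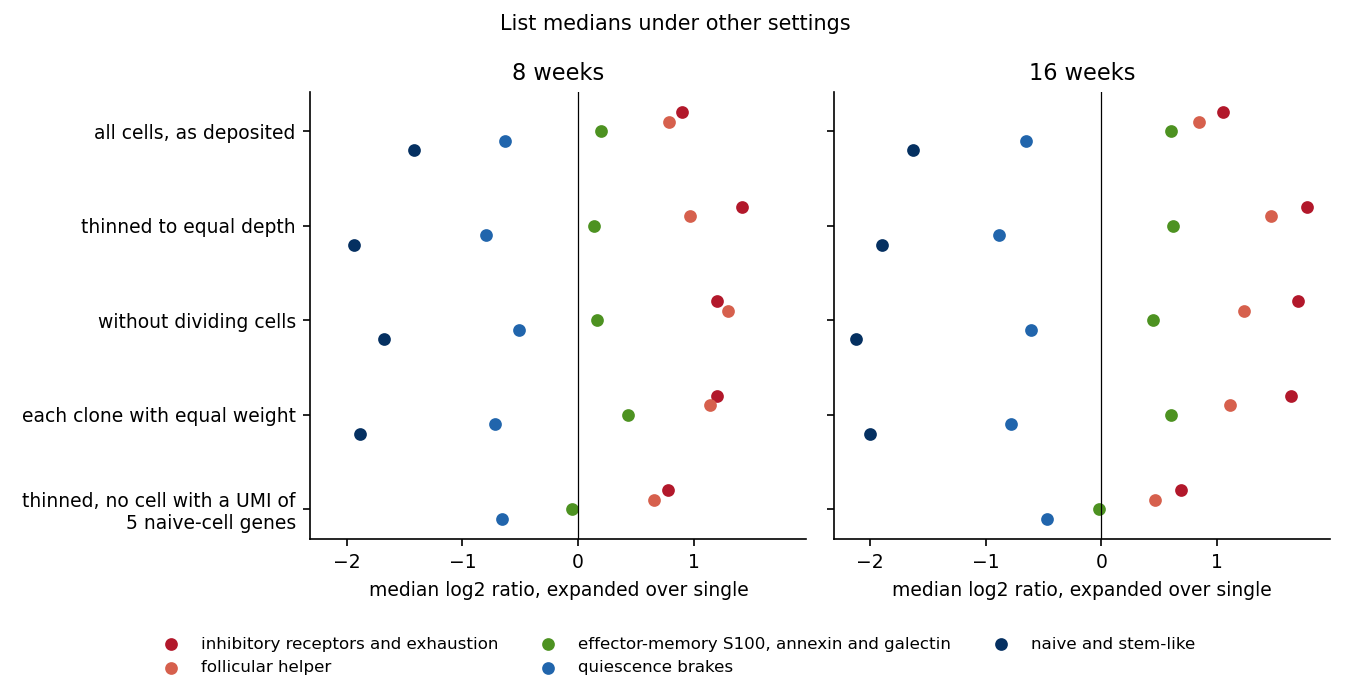
Median log2 ratio of expanded over single cells for 5 gene lists under 5 ways of processing, at 8 and at 16 weeks. The inhibitory receptor list stays above 0 in every setting shown and is lowest, at 0.78 and 0.69, without naive-gene UMIs. The naive list is left out of the setting that selects on its genes.

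Levels were next read by clone size, with 393 single cells, 42 cells of 28 clones of size 2 and 72 cells of 24 larger clones at 8 weeks, and 448, 26 (16 clones) and 28 (11 clones) at 16 weeks. At 8 weeks Lag3 was 181, 475 and 474 CPM in size 1, size 2 and size 3 or more, so clones of 2 cells were already at the level of larger ones. At 16 weeks Lag3 was 204, 336 and 1083 CPM. Ahr was 30.4, 107 and 112 CPM, then 42.1, 85.4 and 241 CPM. Tigit was 177, 285 and 373 CPM, then 151, 183 and 678 CPM. Igfbp4 was 378, 55.2 and 24.7 CPM, then 463, 24.4 and 0 CPM, and Lef1 was 223, 70.5 and 56.1 CPM, then 441, 110 and 82.4 CPM. Tcf7, in contrast, was 218, 141 and 207 CPM, then 232, 201 and 152 CPM. The 16-week values of larger clones rest on 28 cells. The cell with the most Lag3 UMIs gave 18.1% of those of all expanded cells at 16 weeks. Its share among larger clones may be greater.

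**Figure D4:**
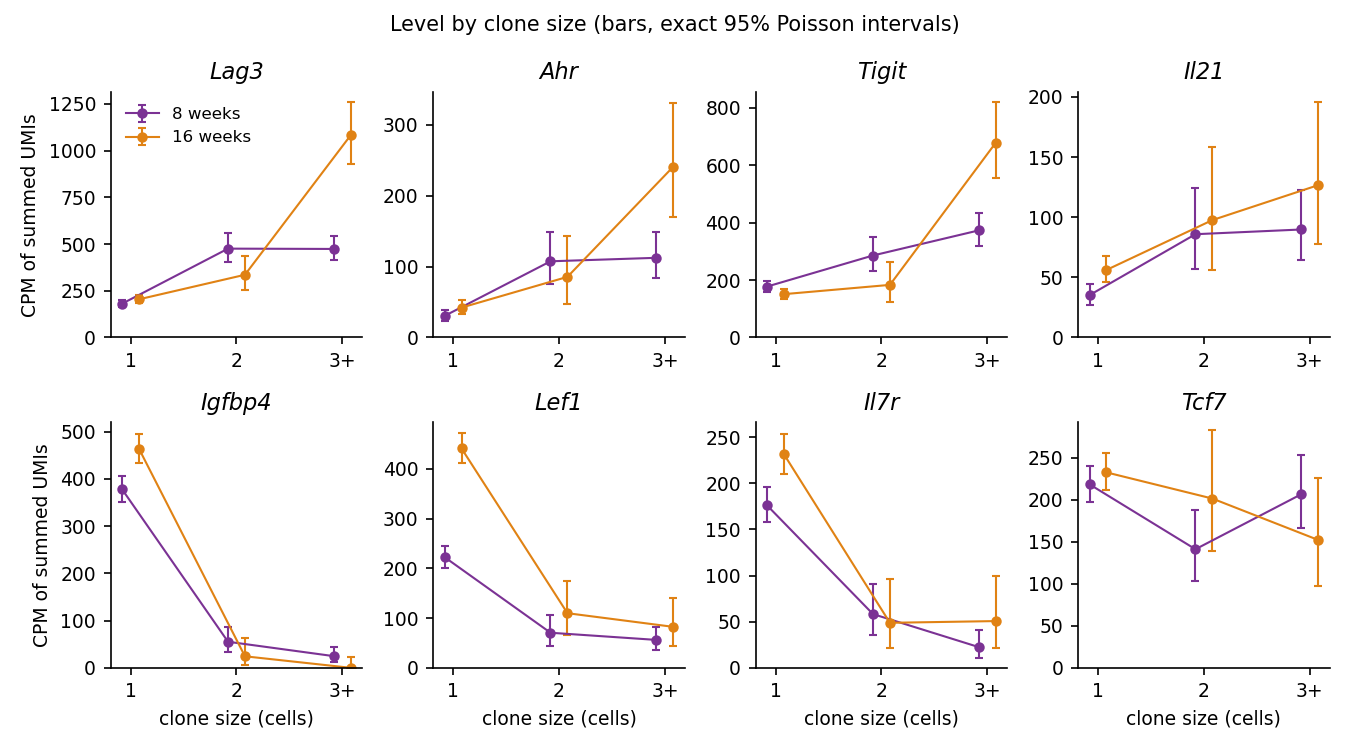
CPM of selected genes in cells of clone size 1, 2 and 3 or more at 8 and at 16 weeks, with Poisson intervals for counting error. Lag3 at 8 weeks is 475 CPM in clones of 2 cells and 474 CPM in larger clones.

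Single clones were read where at least 3 gated cells were available, 11 clones (52 cells) at 8 weeks and 5 clones (18 cells) at 16 weeks. The naive list summed to 435 to 1935 CPM per clone at 8 weeks, against 2591 CPM in single cells, and to 814 to 1721 CPM at 16 weeks, against 3422 CPM. The inhibitory list summed to 1407 to 4968 CPM against 1120 CPM, and to 3088 to 6265 CPM against 1100 CPM. All 16 clones thus lay below single cells for the naive list and above them for the inhibitory list. Igfbp4 had 0 UMIs in 9 of 11 and 5 of 5 clones, at clone depths of 6844 to 72416 UMIs. Pdcd1 was above single cells in 11 of 11 and 4 of 5 clones, and Il21 in 10 of 11 and 5 of 5.

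Lag3 ranged from 22.3 to 1900 CPM between clones at 8 weeks and was above single cells in 7 of 11. All 5 clones at 16 weeks, at 718 to 3777 CPM, were above. The clone at 3777 CPM held 41 Lag3 UMIs. At 16 weeks the cell with the most Lag3 UMIs and the clone with the most each gave 18.1% of those of expanded cells. The value of 3777 CPM may therefore come from a single expanded cell. Ahr was above single cells in 8 of 11 and 4 of 5 clones, and Tigit in 9 of 11 and 5 of 5. Penk was above in 4 of 11 and 0 of 5 clones, and Spp1 in 5 of 11 and 0 of 5. Tcf7 was above single cells in 5 of 11 and 2 of 5 clones and Slamf6 in 9 of 11 and 4 of 5.

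**Figure D5:**
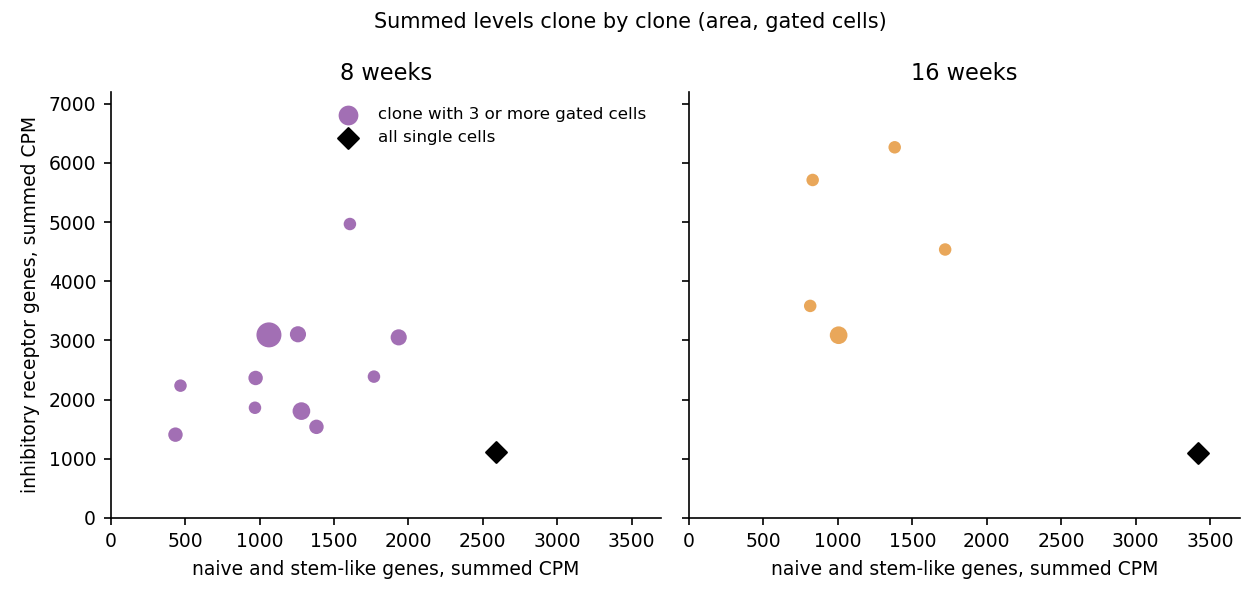
Summed CPM of the naive list (x axis) and the inhibitory receptor list (y axis) in each clone with 3 or more gated cells (area, number of gated cells), with all single cells of each age as a diamond. All 16 clones lie below the single cells of their age for the naive list and above them for the inhibitory list.

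Cells outside the Cd4 gate, which the choice of genes did not use, gave the same genes a second reading within the same libraries. The first set had none of the 4 UMIs used in the gate, with 29 expanded cells of 24 clones against 390 single cells at 8 weeks, and 14 of 12 clones against 436 at 16 weeks. Of the expanded ones 27 at 8 weeks and 10 at 16 weeks belong to clones with gated cells, so they are no independent clones. Only genes with 40 or more UMIs in these cells of each library were read, 3329 of the 5237, among them 64 of the 139 higher and 96 of the 142 lower genes. The 64 had medians of 1.08 and 0.95, against 0.11 and 0.25 over the 3329, and 39 were at least 1.5-fold higher in both libraries (60.9%, against 8.53% of the 3329). The 96 had medians of -1.38 and -0.35, and 32 were at least 1.5-fold lower in both (33.3%, against 4.30%). Pdcd1 had 2.32 and 3.78, Lag3 1.78 and 1.84, Cd200 2.62 and 1.85, and Lef1 -2.87 and -2.27, while Ahr, with 5 and 1 UMIs in expanded cells, had 0.17 and 0.64.

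The second set were Cd8 cells, with 25 expanded cells of 11 clones and 176 single cells at 8 weeks, and 9 of 6 clones and 208 at 16 weeks. Of these expanded cells 3 at 8 weeks and 0 at 16 weeks belong to clones of the expanded Cd4-gated cells. Counted over all cells with a Cd8a or Cd8b1 UMI, whatever their Cd4 or Foxp3 UMIs, those clones held 13 and 6. By the same minimum 2660 genes were read, and the medians were 0.74 and 0.88 for 53 higher genes and -0.84 and -1.05 for 63 lower genes, against 0.16 and 0.27 over the 2660. Of the 53, 24 were at least 1.5-fold higher in both libraries (45.3%, against 8.57%), and of the 63, 33 were at least 1.5-fold lower (52.4%, against 4.02%). Lag3 had 1.04 and 2.50 and Pdcd1 1.32 and 3.11. Cd200 had -0.60 and 2.29, and Ahr had 3 UMIs in expanded and 20 in single Cd8 cells at 8 weeks and 0 UMIs in expanded Cd8 cells at 16 weeks.

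Receptor segments of expanded and single clones were compared per clone, over 19 TRBV segments and 15 TRAV families at 8 weeks and 20 and 18 at 16 weeks, without correction for that number. TRBV15 was in 21.2% of expanded and 6.62% of single clones at 8 weeks, a difference of 14.5 points (5.17 to 27.6), and in 25.9% and 8.71% at 16 weeks, a difference of 17.2 points (4.12 to 36.1). TRAV10 was in 11.5% and 4.07%, then in 22.2% and 4.69%. These were the segments whose interval of the difference lay above 0 at both ages. TRBV1 was in 25.0% and 10.7% at 8 weeks (14.3 points, 3.96 to 27.8) and in 18.5% and 12.1% at 16 weeks, where the interval included 0.

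Near matches of each beta chain were then looked for in the library of the other age. At 8 weeks 7 of 52 expanded clones (13.5%, 5.59 to 25.8%) and 4 of 393 single ones (1.02%, 0.28 to 2.59%) had a beta CDR3 within 1 mismatch of one at 16 weeks. At 16 weeks the shares were 4 of 27 (14.8%, 4.19 to 33.7%) and 9 of 448 (2.01%, 0.92 to 3.78%). Among clone pairs with the same TRBV, TRBJ and CDR3 length, 5 of 14 expanded pairs (35.7%, 12.8 to 64.9%) and 15 of 288 single pairs (5.21%, 2.94 to 8.44%) had at most 3 beta mismatches. The share was 11 of 66 (16.7%) for an expanded 8-week with a single 16-week clone and 2 of 34 (5.88%) for the reverse. All 5 expanded pairs also had alpha CDR3s of equal length within 10 mismatches, whatever their V segment, as did 5 of the 11 near pairs of an expanded 8-week and a single 16-week clone, and none of the 15 single pairs did. The 5 pairs, 4 of them printed above, involve 5 clones at 8 weeks and 4 at 16 weeks, and some share a clone, so the pairs are not independent.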

How the data were processed

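The RNA values are UMI counts per gene and cell barcode, deposited by the authors as a matrix for each library, and the matrix header names software version 3.0.1. The receptor tables are deposited lists of contigs per barcode with V and J segment, CDR3 nucleotides and UMI counts. The submitters' processing notes name mm10 and Seurat, with no role given for Seurat, and aligner, annotation and barcode filter were not given in the sources used here. The deposited gene table holds 27998 genes and no receptor or immunoglobulin gene. The 8-week and 16-week RNA libraries held 2043 and 2107 barcodes and 8659371 and 8183747 UMIs. Doublets were not called. A setting without cells that carried 2 or more beta chains stands in for that step.

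UMIs were summed over expanded and over single cells in each library: 771451 and 1873865 at 8 weeks, 321731 and 1922741 at 16 weeks. Ratios of CPM used 0.5 UMIs added to each sum, with exact conditional intervals. For shares the interval is Clopper-Pearson, and for a difference between shares it is Newcombe's. PCR and droplet loss are not covered. The ratio step was run on simulated counts with known ratios. There all cells of an arm shared 1 mean profile, without differences between cells or clones, so that run does not cover such spread. Genes named are the 12 per direction with the largest ratio in the library where it was smaller, the list members with the most UMIs, and the list members that were counted; Elk3, Oxr1, Naa38, Sh3gl1 and the genes of the closing observations were named after their values were seen. Members, gene lists and rules were chosen with earlier results of these data known. A gene that the naming rule covers is not reported here. Gene coordinates are from GENCODE M21. Software was Python 3.11.15, numpy 2.4.6, pandas 2.3.3, scipy 1.17.1 and matplotlib 3.10.9. Alternatives changed depth, division, weighting by cell or clone, the definition of a clone, cell filters, the pseudocount and the thresholds.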

Additional observations from a re-analysis of the deposited data

Results flagged for a closer look

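Chpf, which encodes a chondroitin polymerizing factor, and Gbp7, an interferon-inducible guanylate-binding protein gene, are listed because their ratios had intervals apart from 0 in opposite directions at the 2 ages. Chpf rested on 21 and 2 UMIs in expanded cells and had a log2 ratio of expanded over single cells of 1.03 at 8 weeks and -1.76 at 16 weeks. Gbp7 had -1.20 at 8 weeks and 0.67 at 16 weeks. The difference between the ages was not tested, since each age has 1 library, and 38 of 5237 genes passed 1.5-fold in opposite directions.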

How the results depend on the processing

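Against the 139 higher and 142 lower genes, thinning gave 76 lower genes, equal weight per cell 261 higher, equal weight per clone 253 higher and 243 lower, expansion at 3 or more cells 87 higher, and removal of cells with RNA of other cells 83 higher. A minimum of 20 UMIs gave 256 lower, a minimum of 100 UMIs 77 higher and 50 lower, a 2-fold threshold 28 and 37, and no limit on 1 cell 209 higher. A pseudocount of 2 UMIs gave 159 higher and 97 lower. The added setting without naive-gene UMIs gave 19 and 14, and 24 and 15 without dividing cells as well. The expanded share became 14.2% and 5.58% with 3 or more cells, 14.74% at 16 weeks from the beta chain alone, 18.54% at 8 weeks over gated cells alone, and 17.68% at 8 weeks without cells with regulatory marker UMIs. In the planned settings 19 of 494 list medians and 1 of 1216 named gene ratios (Tcf7 at 8 weeks after thinning, 0.14) changed sign, none of them over 0.36 in size as reported. In the added settings 24 of 72 list medians and 6 of 111 gene ratios changed sign. Of these, values past 1.5-fold as reported were the S100 list median at 16 weeks (-0.02, and -0.32 without dividing cells), 1700019D03Rik at 16 weeks (-0.31) and Ctla4 at 8 weeks (-0.16). The regulatory list also turned, to -0.42 and -1.21 without dividing cells. The cause was not tested. No gene of the 281 was counted the opposite way in any setting, which was largely fixed in advance because the settings reuse the cells that chose these genes. Over the planned settings the inhibitory list median ranged from 0.73 to 1.42 at 8 weeks and from 0.99 to 1.78 at 16 weeks, and Tcf7 from -0.36 to 0.14 and from -0.73 to -0.09. The median of all genes was at most 0.20. No paired analysis was possible because each age has 1 RNA library. With 321731 UMIs in expanded cells at 16 weeks, genes near 40 UMIs have wide intervals.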

Other observations

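Several further genes counted in both libraries are named here after their values were seen. Among the higher genes were Nfatc1 (log2 ratios of 0.88 at 8 weeks and 0.67 at 16 weeks), a transcription factor of calcium signalling, Malt1 (0.59 and 0.91), a protease of antigen receptor signalling, Ezh2 (0.67 and 1.11), the Polycomb methyltransferase, Cst7 (1.37 and 1.17), a cysteine protease inhibitor, Pdcd1lg2 (0.81 and 1.22), encoding the PD-1 ligand PD-L2, and Itgav (0.70 and 1.12), the integrin alpha V chain. Among the lower genes were Cd55 (-1.59 and -1.84), a complement regulator, Smad7 (-1.34 and -1.12), an inhibitor of TGF-beta signalling, Themis (-1.11 and -0.73), a T cell receptor signalling protein, Ifngr1 (-0.99 and -0.95), the interferon gamma receptor, and Myc (-1.51 and -1.59), a growth transcription factor. Gm42418, which overlaps a ribosomal RNA repeat and may count its reads, had 17795 against 27891 CPM at 8 weeks and 17045 against 26167 CPM at 16 weeks. In the other lists, 1 of 3 measured cytotoxic genes was higher (Nkg7, a granule membrane protein, at 0.84 and 2.62), 1 of 12 T cell receptor signal genes was higher and 1 lower, and 1 of 9 costimulation genes and 1 of 11 glycolysis genes were higher. Among 9 chemokine and homing receptor genes 1 was lower, and no gene of the 6 tissue residency, 10 MHC class I or 12 actin and adhesion genes was counted. Over all 5237 genes 2.65% were higher and 2.71% lower, and a count of 1 gene in so short a list describes that gene only.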
